A study of Homo sapiens with 2 samples.

Results

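A set of 8 genes of the tight junction was followed in 786-O cells, a long-established line from a human clear cell carcinoma of the kidney. The line has no working VHL, the protein that directs HIF factors to destruction. The 8 genes were taken by symbol from tables that held 22595 symbols: the claudins CLDN1, CLDN2, CLDN11 and CLDN12, the occludin gene OCLN, F11R, which encodes junctional adhesion molecule A, TJP1, which encodes the scaffold ZO-1, and CGN, which encodes cingulin. They were chosen by their counts without glucose against with glucose, the same contrast that is described here, so nothing below is a test of it. One culture was grown in medium with 25 mM glucose and the other in medium with 0 mM glucose, and 1 RNA library was made from each. The labels also describe the samples by the words LucF (25 mM) and LucG (0 mM) without explaining them, so any further difference between the cultures that they mark cannot be told apart from glucose. Neither the time without glucose nor any other medium component is stated.

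Tight junctions seal the space between neighbouring epithelial cells near their apical side. Claudins span the membrane, join head to head across the gap and set which ions pass. Claudin 1 is a sealing claudin, while claudin 2 forms pores for small cations and water and is typical of the renal proximal tubule, the segment from which clear cell carcinoma is thought to arise. Occludin and its MARVEL relatives lie beside the claudins, junctional adhesion molecules recruit polarity proteins, and ZO proteins and cingulin tie the strands to actin on the inner side.

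Summed counts came to 27317598 in the library with glucose and to 31345853 in the other. Values are given as CPM, counts per 1e6 of the effective library size, and with 1 library per condition no difference has a replicate check and no test was made. In its place a gene was called higher or lower without glucose when the exact 95% counting interval of its ratio lay wholly above 2-fold or wholly below 0.5-fold. Intervals cover counting error only. The share of counts in genes of small nucleolar, Cajal body and micro RNAs was 5.82% with glucose and 7.98% without. With these genes left out before scaling, the log2 ratios of CLDN2, OCLN and CLDN1 were -5.73, 2.88 and 0.93, and again 1 of the 8 genes was called higher and 1 lower.

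All 8 genes had at least 20 counts over both libraries, the minimum for a gene to be called measured. One was higher without glucose, OCLN, and 1 was lower, CLDN2. The other 6 passed neither bound. Among all 14240 measured genes 3.92% were higher and 6.05% were lower. The 8 log2 ratios had a median of -0.06, and all measured genes had a median of 0.03 with quartiles at -0.44 and 0.43.

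The sequences just upstream of CLDN2, OCLN and CLDN1 are shown because these 3 genes had the largest differences among the 8. Each is the 250 bases before the first start listed in RefSeq, on build GRCh38.p14, written 5′ to 3′ in the direction of transcription. Capitals mark matches on either strand to any of 5 motifs: the E-box CAGGTG bound by Snail family repressors, the ATF4 composite element TGATGNAA, the GC box GGGCGG, the TATA box TATAAA and the AP-1 site TGANTCA. N stands for any base, so TGANTCA is a loose form of the AP-1 site.
CLDN2, chrX:106899914-106900163, plus strand: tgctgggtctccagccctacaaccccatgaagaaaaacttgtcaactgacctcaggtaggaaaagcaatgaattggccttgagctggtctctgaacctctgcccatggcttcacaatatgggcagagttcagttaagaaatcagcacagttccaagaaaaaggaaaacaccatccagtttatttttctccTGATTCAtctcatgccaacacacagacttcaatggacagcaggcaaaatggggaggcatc
OCLN, chr5:69492297-69492546, plus strand: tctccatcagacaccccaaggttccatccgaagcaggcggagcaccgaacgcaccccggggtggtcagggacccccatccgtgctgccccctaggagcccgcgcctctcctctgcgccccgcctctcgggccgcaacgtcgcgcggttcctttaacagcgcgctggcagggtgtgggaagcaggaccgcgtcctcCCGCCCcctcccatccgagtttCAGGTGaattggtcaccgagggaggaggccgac
CLDN1, chr3:190322447-190322696, minus strand: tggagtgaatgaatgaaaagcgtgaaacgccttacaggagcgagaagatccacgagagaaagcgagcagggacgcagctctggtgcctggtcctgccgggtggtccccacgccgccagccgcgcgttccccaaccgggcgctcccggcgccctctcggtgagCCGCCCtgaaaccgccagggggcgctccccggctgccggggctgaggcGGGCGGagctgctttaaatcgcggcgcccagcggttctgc

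The CLDN2 window held 1 match to this loose AP-1 form, TGATTCA, and none of the other 4 motifs. It was the least GC-rich of these 3 windows at 46% G and C with 0 CpG dinucleotides. The OCLN window held 1 E-box match and 1 GC box match, with 68.8% G and C and 24 CpG dinucleotides. The CLDN1 window held 2 GC box matches, with 68.8% G and C and 28 CpG dinucleotides. Over 35116 upstream windows of the same length in the RefSeq table, which lists several starts for some genes, the medians were 58% G and C and 11 CpG dinucleotides, and 14.7% of windows had at most 1 CpG. The E-box letters were found in 17.5% of those windows, the ATF4 composite element in 3.14%, the GC box in 42.6%, the TATA box in 10.7% and the AP-1 site in 6.57%. RefSeq lists another start for CLDN2, whose window had 48.8% G and C and held 1 CpG and none of the 5 motifs, and another for OCLN, whose window held 1 E-box match. A match is a run of letters and not evidence of binding. Of the 8 genes, 7 matched the table, and F11R did not.

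Claudin 2 had the lowest ratio of the 14240 measured genes, with counts of 0 set to a floor of 3 counts. CLDN2 had 244 counts with glucose and 5 without, or 8.72 CPM (counting interval 7.66 to 9.89) against 0.163 CPM (0.0531 to 0.381). This was a 53.4-fold lower level without glucose, with a counting interval of 22.6 to 166, and a log2 ratio of -5.74. Ranked by the upper bound of the interval, which takes the few counts into account, it was the 3rd lowest gene. Adding 1 CPM to each library, which damps low values, gave a log2 ratio of -3.06. In these bulk samples fewer cells with the transcript and less transcript per cell cannot be told apart.

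In the hg19 coordinates of the tables, CLDN2 lies at chrX:106143394-106174091 (plus strand), with 4 exons in a gene model of 3434 bases. Of these, 1 exon had more than 10 reads with glucose and 0 had without. RIPPLY1, on the opposite strand, overlaps the model and had 4 counts with glucose and 3 without. The flanking genes were TBC1D8B, with 27.0 and 19.0 CPM (log2 ratio -0.51), and MORC4, with 98.9 and 60.1 CPM (-0.72). Both flanking genes were thus within 2-fold.

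Claudin 1 was the most abundant claudin in both libraries and stood just inside the 2-fold bound. CLDN1 had 5613 counts with glucose and 11565 without, or 201 CPM (195 to 206) against 378 CPM (371 to 385). The ratio was 1.88-fold, with a counting interval of 1.82 to 1.95, so it was not called. With an interval wholly past 1.5-fold in place of 2-fold it was called higher, where 10.6% of all measured genes were higher and 12.2% lower. All 4 exons of its model (hg19 chr3:190023490-190040235, minus strand) had more than 10 reads in both libraries. CLDN16, the neighbouring claudin gene on the same chromosome, had 46 and 38 counts (log2 ratio -0.40, interval -1.06 to 0.25).

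Claudin 12, an atypical claudin, and claudin 11, a claudin of myelin and of the testis barrier, were within 2-fold by their point ratios. CLDN12 (hg19 chr7:90032712-90045268, plus strand) had 2121 counts with glucose and 1962 without, or 75.8 and 64.1 CPM, a log2 ratio of -0.24 (interval -0.33 to -0.15). CLDN11 (hg19 chr3:170136653-170152479, plus strand) had 15 and 18 counts, or 0.536 and 0.588 CPM. Its log2 ratio of 0.13 had an interval of -0.94 to 1.23, which at this depth leaves the direction of the difference undetermined.

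**Figure D1:**
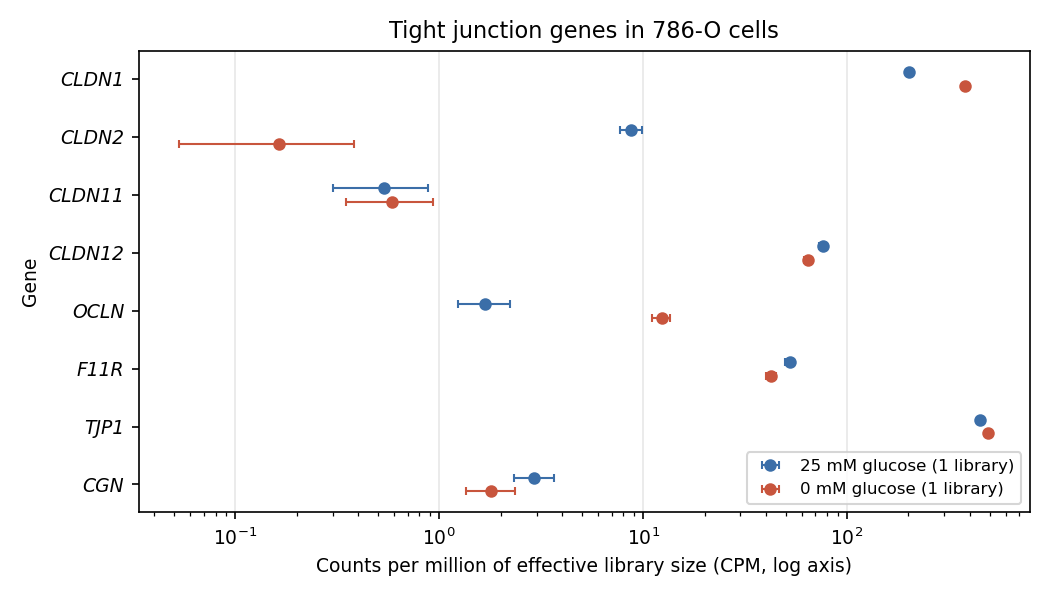
CPM of the 8 tight junction genes on a log axis, 1 point per library with its exact 95% counting interval as a bar. CLDN2 stands at 8.72 CPM with glucose and 0.163 CPM without, OCLN stands at 1.68 and 12.3 CPM, and TJP1 is the highest of the 8 in both libraries at 450 and 490 CPM.

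The claudin counts as a whole were 1.54-fold higher without glucose (interval 1.5 to 1.59), at 458 CPM against 296 CPM summed over the 23 claudins in the tables. CLDN1 made up 67.7% of the 8292 claudin counts with glucose (exact Clopper-Pearson interval 66.7 to 68.7%) and 82.6% of the 14007 without (81.9 to 83.2%). The share of CLDN12 was 25.6% with glucose (24.6 to 26.5%) and 14% without (13.4 to 14.6%). The share of CLDN2 was 2.94% (2.59 to 3.33%) and 0.0357% (0.0116 to 0.0833%). CLDN2 was therefore the 3rd most counted claudin with glucose, and without glucose it was below the measured claudins CLDN15, CLDN4, CLDN16, CLDN23 and CLDN11 and, at 5 counts, also below CLDN3 at 10, which was not measured, and level with CLDN6 and CLDN7. Without glucose its share interval overlapped those of CLDN11 (0.0762 to 0.203%) and CLDN3 (0.0342 to 0.131%), so its order against them is uncertain. These shares do not depend on how the libraries are scaled. Corrected for the length of each gene model, the shares of CLDN1 were 67.0% and 81.3%, and those of CLDN2 2.92% and 0.0353%.

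For each CLDN2 count there were 23.0 CLDN1 counts with glucose (interval 20.2 to 26.3) and 2313 without (991 to 7125). CLDN1 to CLDN12 stood at 2.65 with glucose (2.52 to 2.78) and 5.89 without (5.62 to 6.19). In each of these pairs the intervals of the 2 libraries did not overlap.

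**Figure D2:**
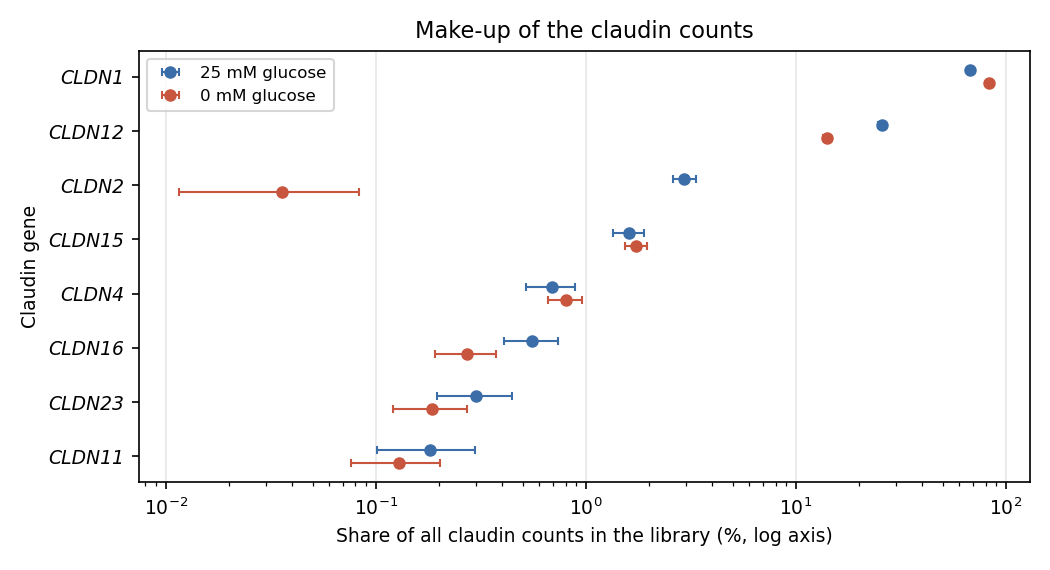
Share of all claudin counts, in percent on a log axis, for the 8 measured claudins, with exact 95% Clopper-Pearson intervals as bars and 1 point per library. CLDN1 takes 67.7% with glucose and 82.6% without, CLDN2 2.94% and 0.0357%, and the bars of CLDN15, CLDN4, CLDN23 and CLDN11 overlap between the libraries.

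Of the 19 other claudins 4 were measured and 0 were called. CLDN4, a sealing claudin of distal nephron and many epithelia, had 57 counts with glucose and 112 without (2.04 and 3.66 CPM, log2 ratio 0.85, interval 0.37 to 1.33). CLDN15, which forms cation pores as claudin 2 does, had 133 and 243 counts (4.75 and 7.94 CPM, 0.74, 0.43 to 1.06). CLDN23 had 25 and 26 counts, a log2 ratio of -0.07. The 15 claudins that were not measured, among them CLDN3, CLDN7, CLDN8 and CLDN10 of tubular epithelium, had at most 10 counts in either library, and CLDN14 and CLDN24 were at 0 in both.

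Occludin was the 1 gene of the 8 that was higher. OCLN had 47 counts with glucose and 376 without, or 1.68 CPM (1.23 to 2.23) against 12.3 CPM (11.1 to 13.6). The ratio was 7.31-fold, with a counting interval of 5.39 to 10.1, and a log2 ratio of 2.87, the 84th highest of the 14240 measured genes. Adding 1 CPM to each library gave 2.31. Of the 9 exons of its model (hg19 chr5:68788119-68850133, plus strand) 1 had more than 10 reads with glucose and 6 had without. A partial copy of the gene, listed as LOC647859 in the tables and named OCLNP1 in RefSeq, had 0 counts in both libraries. How reads shared by the copies were counted is not given, so the OCLN values are uncertain to that extent.

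Its neighbour on the same strand and its relative, MARVELD2, which encodes tricellulin of the three-cell contacts, had 78 and 190 counts (2.79 and 6.21 CPM). The ratio was 2.23-fold and its log2 interval of 0.77 to 1.55 crossed the bound. OCLN had 0.603 counts for each MARVELD2 count with glucose (0.410 to 0.876) and 1.98 without (1.66 to 2.37), so the order of these neighbours by count was opposite in the libraries. The other measured genes of tricellular contacts were LSR, angulin-1, with 32.8 and 38.6 CPM (log2 ratio 0.23), and ILDR2, with 14.3 and 7.94 CPM (-0.85). Of the 5 genes of this list 3 were measured and 0 were called, with a median of 0.23.

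F11R, the adhesion molecule that recruits the PAR polarity complex, had 1464 counts with glucose and 1296 without, or 52.3 and 42.3 CPM. Its log2 ratio was -0.31 (interval -0.41 to -0.20), within 2-fold, and 9 of the 10 exons of its model (hg19 chr1:160965001-160991133, minus strand) had more than 10 reads in both libraries. Of 7 related immunoglobulin proteins 6 were measured and 0 were called, with a median of -0.60. CXADR, the coxsackie and adenovirus receptor, had 9.15 and 5.65 CPM (-0.69). ESAM had 30 and 9 counts (-1.87), JAM3 20 and 7 counts (-1.64), and IGSF5 6 and 21 counts (1.68), all with intervals that crossed the 2-fold bound.

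ZO-1 was the most abundant of the 8 transcripts by count. TJP1 (hg19 chr15:29992357-30114706, minus strand) had 12585 counts with glucose and 14999 without, or 450 CPM (442 to 458) against 490 CPM (482 to 498). The ratio was 1.09-fold (interval 1.06 to 1.12), a log2 ratio of 0.12 with an interval of 0.09 to 0.16. Over the scalings and row settings run it lay between 0.05 and 0.15, so the choice of scaling reached past the counting interval. All 28 exons had more than 10 reads in both libraries. TJP3, the ZO-3 gene, had 3 counts with glucose and 0 without.

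Cingulin, which links ZO proteins to actin, myosin and RhoA regulators, was scarce. CGN (hg19 chr1:151483862-151511167, plus strand) had 82 counts with glucose and 55 without, or 2.93 CPM (2.33 to 3.64) against 1.80 CPM (1.35 to 2.34). Its log2 ratio of -0.71 had an interval of -1.23 to -0.20, and 2 of its 21 exons had more than 10 reads with glucose and 1 without. Its paralog CGNL1, paracingulin, was more abundant and was lower without glucose, with 784 and 251 counts, 28.0 and 8.20 CPM, 3.42-fold (log2 ratio -1.77, interval -1.98 to -1.57). CGNL1 exceeded CGN 9.56-fold by count with glucose (7.61 to 12.2) and 4.56-fold without (3.40 to 6.23). TUFT1, which starts 1614 bases after CGN on the same strand, had 35.8 and 77.2 CPM (log2 ratio 1.11).

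**Figure D3:**
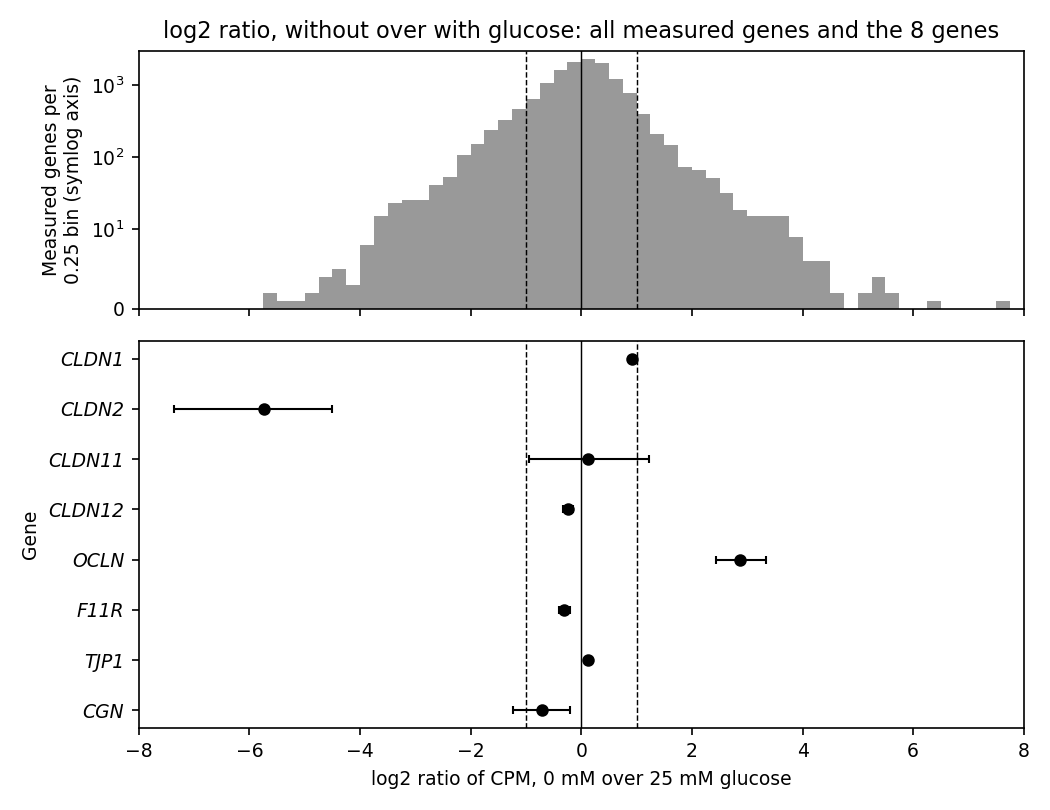
Upper panel, number of measured genes per 0.25 step of the log2 ratio of CPM without over with glucose, on an axis that is linear near 0 and logarithmic above. Lower panel, the ratios of the 8 genes with exact 95% counting intervals as bars, and dashed lines at 2-fold: CLDN2 at -5.74 lies at the left end of the upper panel, OCLN at 2.87 on its right flank, and the intervals of 4 genes, CLDN1, CLDN12, F11R and TJP1, lie wholly between the lines.

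Compared per length of gene model, the 8 genes spanned a wide range of levels. With glucose the order was TJP1 (63.0 CPM per kilobase), CLDN1 (58.2), CLDN12 (21.1), F11R (10.9), CLDN2 (2.54), OCLN (0.638), CGN (0.577) and CLDN11 (0.188). Without glucose it was CLDN1 (110), TJP1 (68.7), CLDN12 (17.8), F11R (8.79), OCLN (4.67), CGN (0.354), CLDN11 (0.206) and CLDN2 (0.0476). CLDN2 thus stood in the fifth place with glucose and in the last without, OCLN in the sixth and the fifth, and CLDN1 was below TJP1 with glucose and above it without. The OCLN and CGN levels with glucose were close to each other relative to their counting error, and no replicate spread is known for any of these neighbours. The median measured gene stood at 8.51 and 8.46 CPM per kilobase, so that TJP1, CLDN1, CLDN12 and F11R were above it in both libraries and the other 4 below.

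The inner plaque list beyond TJP1 and CGN held 20 genes, of which 19 were measured, 0 were higher and 1, CGNL1, was lower, with a median log2 ratio of -0.11. For this and each list below, the shares over all measured genes were 3.92% higher and 6.05% lower. In lists this short, 1 or 2 called genes are not read as a result about the list. CSDA, the older name of YBX3, which encodes the ZO-1-bound factor ZONAB, had 32.7 and 64.7 CPM (0.98, interval 0.87 to 1.10). MAGI3, a scaffold with PDZ domains, had 31.4 and 16.6 CPM (-0.92), and AMOTL1, an angiomotin-like protein, had 103 and 54.4 CPM (-0.92). Over the 51 other tight junction genes of the 4 lists, 32 were measured, 0 were higher and 1 was lower, and the median was -0.17.

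Polarity genes, whose products place the junction along the side of the cell, had 16 of 17 measured, 0 higher and 1 lower, with a median of -0.23. The lower gene was PARD6G, with 68 and 22 counts (log2 ratio -1.76), and PARD3, the PAR-3 scaffold that binds F11R, had 251 and 331 CPM (0.40). LLGL2 (-0.91), DLG1 (-0.78) and STK11 (-0.60) were within 2-fold by their point ratios. The interval of LLGL2 (-1.55 to -0.30) crossed the bound.

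Adherens junction genes had 11 of 13 measured, 1 higher and 2 lower, beside 3.92% and 6.05% of all measured genes. Their median was -0.65. VCL, vinculin, had 632 and 288 CPM (log2 ratio -1.13, interval -1.17 to -1.10) and was lower, as was PVRL1, nectin-1, with 48.9 and 18.7 CPM (-1.39). The higher gene was PVRL4, nectin-4, with 4 counts with glucose and 36 without (3.04, interval 1.56 to 4.99). CDH1, E-cadherin, had 8 and 7 counts and was not measured, while CDH2, N-cadherin, had 363 and 403 CPM (0.15). CTNNB1, beta-catenin, had 766 and 512 CPM (-0.58), JUP, plakoglobin, 52 and 16 counts (-1.83, not called), and CDH16, the kidney cadherin, 23 and 16 counts. The cells thus held N-cadherin and little E-cadherin transcript in both libraries. Of 12 desmosome genes 7 were measured and 0 were called, with a median of -0.13, and the largest ratios were those of PKP3 (1.09) and EVPL (-0.98), ahead of DSC2 (-0.22) and DSP (-0.19).

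**Figure D4:**
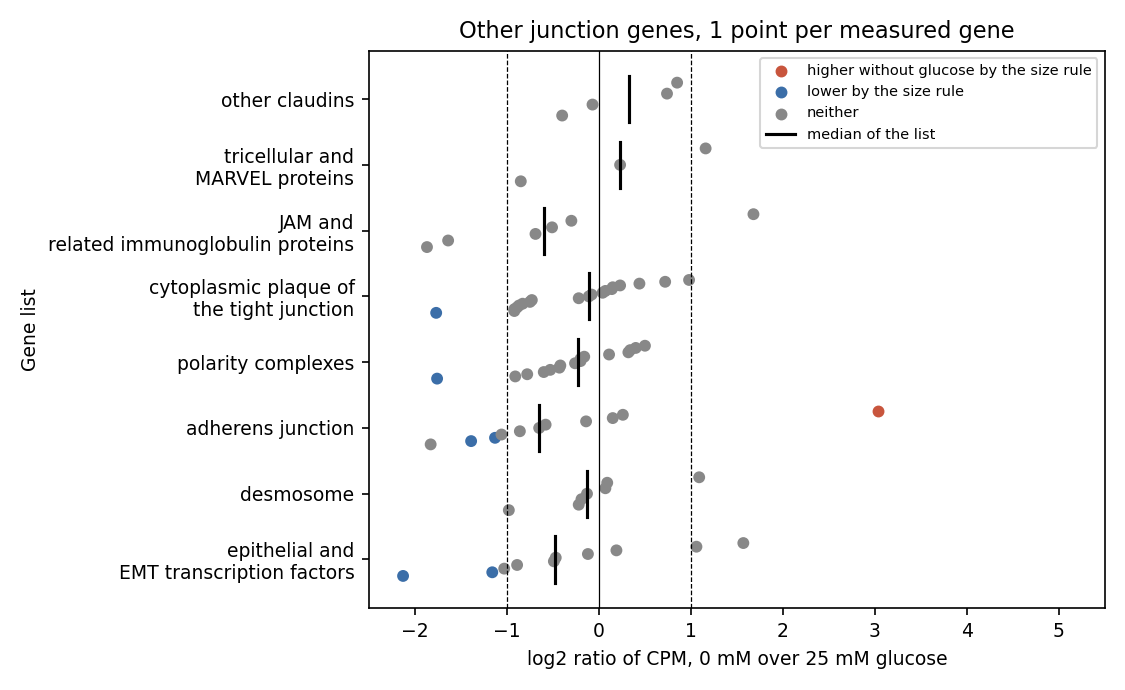
log2 ratio of CPM without over with glucose for the measured genes of 8 lists, 1 point per gene, coloured by whether the counting interval lay wholly past 2-fold, with the median of each list as a black bar and dashed lines at 2-fold. Most points lie between the lines, CGNL1 (-1.77) is the coloured point of the plaque list, and PVRL4 (3.04) is the 1 gene of these lists called higher.

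Of a list of transcription factors that act on junction genes in epithelia, which also holds the splicing factors ESRP1 and ESRP2, 10 of 16 were measured, 0 higher and 2 lower, with a median of -0.48. EHF, an epithelial ETS factor, had 36 and 9 counts and was lower (log2 ratio -2.13, interval -3.37 to -1.05). SNAI2, the repressor Slug, which binds E-boxes of the kind marked in the OCLN window, had 73.2 and 152 CPM. The interval of its log2 ratio of 1.06 was 0.98 to 1.13, so that it was not called. The window before the first listed start of TJP1, a gene with a log2 ratio of 0.12, also held an E-box match. ZEB1 had 62.1 and 57.2 CPM (-0.12) and ESRP1 had 12 and 39 counts (1.57). HNF4A had 0 counts with glucose and 8 without and was not measured. The part of these factors in the CLDN2, OCLN and CLDN1 values was not tested.

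Markers of the proximal tubule, the segment where claudin 2 is typical, were present in part. Of 13 markers 8 were measured, 1 was higher and 1 lower, and the summed level was 103 CPM with glucose and 96.7 without. ANPEP and MME were the most counted, with 1669 and 1244 counts and with 681 and 934 counts. PDZK1, a scaffold of apical transporters, had 72 and 15 counts (log2 ratio -2.39) and was lower, and SLC13A3, a dicarboxylate transporter, had 122 and 341 counts (1.35) and was higher. CUBN (0.65) and LRP2 (-0.61), the endocytic receptors cubilin and megalin, were within 2-fold by their point ratios. Their intervals, 0.29 to 1.01 and -1.95 to 0.66, crossed the bound. SLC5A2 and SLC22A6 were at 0 in both libraries, and SLC34A1 had 2 counts in each.

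Of 10 markers of the later nephron SLC12A3 alone was measured, with 21 and 8 counts, and UMOD was at 0 in both. Of 8 leukocyte markers 3 were measured, with 263 and 348 CPM in sum, most of it LCP1 (252 and 321 CPM), with CD68 (10.6 and 25.7 CPM) called higher and CD14 at 12 and 9 counts, while PTPRC had 9 and 4 counts. Of 8 endothelial markers KDR, TEK and ESAM were measured, with log2 ratios of -2.13, -1.05 and -1.87 and 0 called, and the list summed to 3.61 and 1.21 CPM. CLDN5, the endothelial claudin, had 1 count in each library. Of 10 fibroblast markers 9 were measured, with 31.4 and 21.3 CPM in sum, and LUM (10.5 and 3.27 CPM) was lower. PDGFRB (-0.81), THY1 (-0.61) and COL1A1 (-0.51) were within 2-fold by their point ratios. The intervals of PDGFRB (-2.11 to 0.42) and THY1 (-1.67 to 0.41) crossed the bound. The part of other cell types in the values of the 8 genes was not tested. None of 13 reference genes was called, with a median of -0.08 and ratios of -0.73 for ACTB, -0.69 for SDHA and 0.68 for RPLP0.

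The genes closest to CLDN2 in both libraries are listed as a description only. By distance in log2 CPM over the 2 libraries, the 3 nearest of all measured genes were FCAMR, a receptor for IgA and IgM, with 8.22 and 0.163 CPM at a distance of 0.09, CXCL12, a chemokine, with 8.18 and 0.294 CPM at 0.85, and CCL2, also a chemokine, with 6.15 and 0.294 CPM at 0.99. FCAMR was the 1 gene within a distance of 0.5. CLDN2 had the lowest ratio of all measured genes, so few genes could lie near it. Its CPM interval without glucose, 0.0531 to 0.381, is wider on the log2 scale than that distance. CLDN1 had 120 genes within a distance of 0.5, with RPL13A (197 and 376 CPM) and SCARNA5 (208 and 369 CPM) among the 3 nearest. For these reasons the numbers of near genes of CLDN2 and CLDN1 cannot be compared. With 2 libraries such likeness rests on 2 values per gene.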

How the data were processed

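Trizol was used to extract RNA from 2 cultures of 786-O cells, per the labels' protocols. How libraries were prepared, aligned and counted, and whether strand was used, is not stated, so reads of overlapping genes on opposite strands cannot be told apart. Genome build hg19 is given in the submitters' processing notes. The deposited tables held raw counts, a length, an RPKM value and, per the file headers, the number of exons with more than 10 reads for each of 24364 gene models. The deposited RPKM values matched count over length times a constant per library, and were used for this check alone.

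Where 2 symbols had the same place, length and counts, 1 row was kept (528 rows left out), and rows of 1 symbol were added up. Effective library sizes were estimated over all symbols by TMM (edgeR 4.0.16, R 4.3.3). The factors were 1.02 for the library with glucose and 0.976 for the other. Ratios and exact Clopper-Pearson intervals were computed in Python 3.11.15 (scipy 1.17.1). The procedure was tested on simulated counts that held counting error alone, so that test does not bear on differences between cultures. For ratios, counts of 0 were replaced by a floor of 3 counts, equal to 0.107 CPM with glucose and 0.0980 CPM without. Intervals and this floor describe the counting error of reads alone. PCR copies are not separate molecules, so where reads include them the intervals are too narrow for counts of molecules. The 8 genes and the 14 other gene lists were chosen with earlier results of these data known. Genes named are the 8, the measured claudins, up to 4 genes per list with the largest absolute ratio and all called ones, 14 fixed genes and the 3 nearest to CLDN2 and to CLDN1. Neighbouring genes, TJP3, genes at or near 0 and the most abundant markers were named after their values were seen. Some genes of this rule are not reported here. Alternatives were other scalings (total counts, upper quartile, DESeq2 1.42.0 size factors, small RNA genes left out), 1 CPM added, other count minimums and other sizes.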

Additional observations from a re-analysis of the deposited data

How the results depend on the processing

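With 1 library per condition no replicate could be left out, and differences between cultures, library depth and RNA make-up cannot be separated from glucose. No paired analysis was possible because there was a single library on each side. With an interval wholly past 1.5-fold, 2 of the 8 genes were higher, OCLN and CLDN1, against backgrounds of 10.6% higher and 12.2% lower, and among all measured genes 1512 were higher and 1744 lower, where the 2-fold rule gave 558 and 862. With the point ratio past 2-fold in place of the interval, 1070 were higher and 1490 lower. These counts follow from the size asked for. The number of the 8 genes that was higher (1) or lower (1) was the same under every scaling, row and count setting run. Over these scalings and row settings the log2 ratio lay between -5.81 and -5.72 for CLDN2, 2.80 and 2.89 for OCLN and 0.84 and 0.94 for CLDN1, and none of the 8 ratios turned its sign. TMM over measured genes alone was added after seeing the data and gave 534 genes higher and 883 lower. Counting limits CLDN11 (33 counts over both libraries), CGN (137) and the value of CLDN2 without glucose (5).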
